A study of Mus musculus with 9 samples.

Results

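The endoplasmic reticulum (ER) stress and folding genes described here are Hspa5, Hsp90b1, Sdf2l1, Creld2, Pdia4, Pdia6, Dnajb9, Herpud1, Atf4 and Ddit3. They were chosen by gene symbol, 10 of the 21983 symbols in the deposited count table, and all 10 passed the filter on low counts that left 14739 genes tested. The study sequenced lung RNA of inbred BALB/c mice in 3 groups of 3 libraries each. In the BSYQF group, asthmatic mice received the Chinese herbal Bu-Shen-Yi-Qi formula by mouth at 20 g raw herbs per kg from day 14, for 6 weeks. The asthma group held asthmatic mice and the control group normal mice, both given saline by mouth from day 14. The sources used here do not give the way asthma was induced, or the age and sex of the mice. Nothing in the labels says that the 3 libraries of a group came from separate mice, so p-values measure only the spread among them, which may be technical.

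As background, proteins bound for secretion or for membranes fold inside the ER with the help of chaperones and of enzymes that form disulfide bonds. When unfolded protein builds up, the sensors IRE1 (Ern1), ATF6 and PERK (Eif2ak3) start the unfolded protein response. IRE1 splices the mRNA of the transcription factor XBP1, and ATF6 is cut to release one, and both raise chaperone and degradation genes. PERK phosphorylates the initiation factor eIF2alpha, which favours translation of ATF4, an activator of amino acid genes and of Ddit3 (CHOP). Cells with a heavy secretory load, such as plasma cells and mucus-producing goblet cells, use the first of these arms strongly.

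The sequence shared by some members is shown first, because it is the best known binding element of this response. The ER stress response element was searched as CCAAT, any 9 bases, then CCACG, and its second form as ATTGG, any 1 base, then CCACG, each on both strands. The search covered 32851 RefSeq promoter windows of GRCm38.p6, which run from 250 bases before to 50 bases after the RefSeq start, with 1 window per member. The exact element was present in 0.119% of all windows and in those of 4 members, Hspa5, Hsp90b1, Pdia6 and Creld2. The second form was present in 0.0365% of all windows and in that of 1 member, Herpud1. The windows below are on the gene's strand, 5′ to 3′, and capitals mark the matched element, or its reverse complement where the match lay on the other strand, with the spacer in it. They are chr2:34771840-34772139 (plus strand, Hspa5), chr10:86705395-86705694 (minus strand, Hsp90b1), chr12:17266339-17266638 (plus strand, Pdia6), chr15:88819396-88819695 (plus strand, Creld2) and chr8:94386179-94386478 (plus strand, Herpud1).
Hspa5: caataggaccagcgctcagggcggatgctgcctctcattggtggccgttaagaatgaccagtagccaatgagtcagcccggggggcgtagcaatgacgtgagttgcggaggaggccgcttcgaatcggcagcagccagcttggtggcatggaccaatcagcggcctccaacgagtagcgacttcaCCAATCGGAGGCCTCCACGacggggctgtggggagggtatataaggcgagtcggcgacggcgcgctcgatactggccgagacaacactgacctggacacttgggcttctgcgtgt
Hsp90b1: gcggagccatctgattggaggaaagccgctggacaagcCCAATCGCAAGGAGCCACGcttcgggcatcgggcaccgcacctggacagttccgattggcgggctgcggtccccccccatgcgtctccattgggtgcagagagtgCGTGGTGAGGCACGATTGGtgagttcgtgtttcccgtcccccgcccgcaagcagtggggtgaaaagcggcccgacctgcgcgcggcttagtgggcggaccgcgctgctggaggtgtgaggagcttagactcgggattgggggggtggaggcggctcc
Pdia6: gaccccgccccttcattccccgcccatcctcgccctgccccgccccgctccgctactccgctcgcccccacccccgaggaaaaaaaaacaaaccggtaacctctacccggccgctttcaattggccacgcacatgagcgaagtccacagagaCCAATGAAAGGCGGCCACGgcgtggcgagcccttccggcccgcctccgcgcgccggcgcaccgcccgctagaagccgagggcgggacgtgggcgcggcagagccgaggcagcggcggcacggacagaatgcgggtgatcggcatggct
Creld2: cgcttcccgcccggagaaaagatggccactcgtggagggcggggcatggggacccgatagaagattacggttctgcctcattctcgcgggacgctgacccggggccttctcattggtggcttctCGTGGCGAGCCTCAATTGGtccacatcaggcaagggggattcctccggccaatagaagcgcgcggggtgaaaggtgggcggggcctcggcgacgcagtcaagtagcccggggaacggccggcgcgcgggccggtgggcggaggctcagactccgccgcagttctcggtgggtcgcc
Herpud1: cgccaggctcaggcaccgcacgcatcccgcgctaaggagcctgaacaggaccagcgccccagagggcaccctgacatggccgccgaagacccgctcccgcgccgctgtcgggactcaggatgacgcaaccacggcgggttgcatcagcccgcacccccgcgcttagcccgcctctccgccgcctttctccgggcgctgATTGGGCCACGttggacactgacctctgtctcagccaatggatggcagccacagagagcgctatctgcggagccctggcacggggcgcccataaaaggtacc

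Counted from the start site, the Hspa5 match lay at -65 to -47 and the Pdia6 match at -98 to -80. Hsp90b1 held a pair of matches, at -212 to -194 and, on the other strand, at -107 to -89. The Creld2 match lay at -126 to -108 on the other strand, and the Herpud1 match to the second form at -52 to -42. The core CCACG, which is part of both forms, was in the windows of 9 members but also in 32.8% of all windows, and Ddit3 was the member without it. The windows of Pdia4, Sdf2l1, Dnajb9, Atf4 and Ddit3 held neither full form, which says only that these exact letters were not there. A match is a description of sequence and not a shown binding site.

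**Figure D1:**
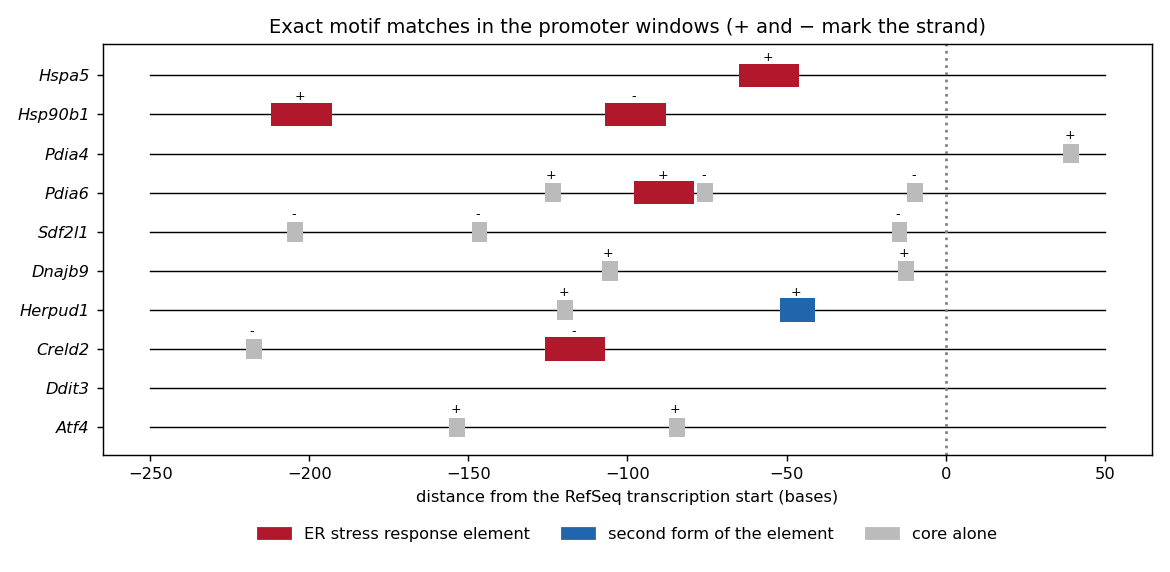
Matches to the ER stress response element, its second form and the core CCACG in the RefSeq promoter window of each of the 10 members, by distance from the annotated start site in bases. The full element is marked in Hspa5, Hsp90b1, Pdia6 and Creld2, the second form in Herpud1, and Ddit3 has no mark.

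In the asthma lungs the chaperones and oxidoreductases among the members were higher than in control lungs, and the ATF4 and CHOP genes did not pass the test. Hspa5, Hsp90b1, Sdf2l1, Creld2, Pdia4 and Pdia6 rose between 2.28-fold and 5.25-fold. Levels are given as CPM, the counts scaled to a common library total after TMM correction. Log2 fold changes with their standard errors (SE) come from edgeR's quasi-likelihood test, with calls at an adjusted p under 0.05 (Benjamini-Hochberg, over all 14739 genes tested). The called members were 6 of 10, all higher, beside 8.23% of all genes tested that were called higher. The median log2 fold change of the 10 members was 1.22, and that of all genes tested 0.02.

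Hspa5 encodes BiP, the main Hsp70-type chaperone of the ER and the protein that holds the stress sensors inactive. It stood at 935, 719.9 and 575 CPM in the BSYQF libraries, 1310.3, 1293 and 732 CPM in the asthma libraries, and 494, 441 and 463 CPM in the control libraries. Asthma and control did not overlap, the third asthma library lay well below the other asthma libraries, and the BSYQF libraries reached into the asthma range. The log2 fold change of Hspa5 in asthma against control was 1.25 ± 0.25 (SE, n = 3 each, adjusted p = 0.0162 by edgeR).

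Hsp90b1 encodes GRP94, the ER member of the Hsp90 chaperones, which folds Toll-like receptors and integrins among other clients. Its levels were 1551, 1038 and 991 CPM in BSYQF, 2089.5, 2134 and 1079 CPM in asthma, and 664, 599 and 659 CPM in control libraries. Every asthma and every BSYQF library lay above every control library, and the third asthma library lay inside the BSYQF range. In asthma against control Hsp90b1 rose 2.76-fold, with a log2 fold change of 1.46 ± 0.28 (SE, adjusted p = 0.0132 by edgeR).

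Sdf2l1 is an ER-resident protein that works with BiP and its cochaperone Dnajb11. It had the largest fold change of the members, although it was among the least abundant of them. Levels of Sdf2l1 were 91.8, 47.2 and 46.5 CPM in BSYQF, 122, 101 and 43.9 CPM in asthma, and 19.7, 15.2 and 15.9 CPM in control libraries. The third asthma library was below all BSYQF libraries, and all of these lay more than 2-fold above the control libraries. The log2 fold change was 2.39 ± 0.38 in asthma against control, a 5.25-fold rise (SE, adjusted p = 0.00936 by edgeR).

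Creld2, an ER protein that is induced by ER stress and interacts with disulfide-bonded clients, also had its lowest asthma value in the third library. It was at 177, 88.5 and 71.2 CPM in BSYQF, 225, 251 and 100.4 CPM in asthma, and 49.6, 32.1 and 42.1 CPM in control libraries. Asthma and control did not overlap, and the first BSYQF library lay between the third asthma library and the other asthma libraries. Creld2 rose 4.65-fold in asthma against control, a log2 fold change of 2.22 ± 0.40 (SE, adjusted p = 0.0122 by edgeR).

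Pdia4 (ERp72) and Pdia6 (P5) are protein disulfide isomerases that form and exchange disulfide bonds in folding proteins. Pdia4 was measured at 270.3, 195 and 181 CPM in BSYQF, 418, 401 and 192 CPM in asthma, and 113, 101 and 114 CPM in control libraries. Pdia6 was measured at 383, 398 and 346 CPM in BSYQF, 713, 593 and 413 CPM in asthma, and 253, 239 and 263 CPM in control libraries. For both genes the asthma libraries lay above all control libraries, and for Pdia6 the BSYQF libraries also lay below all asthma libraries. Pdia4 rose 3.09-fold in asthma against control (log2 fold change 1.63 ± 0.27, adjusted p = 0.0100 by edgeR) and Pdia6 rose 2.28-fold (1.19 ± 0.20, adjusted p = 0.00969).

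**Figure D2:**
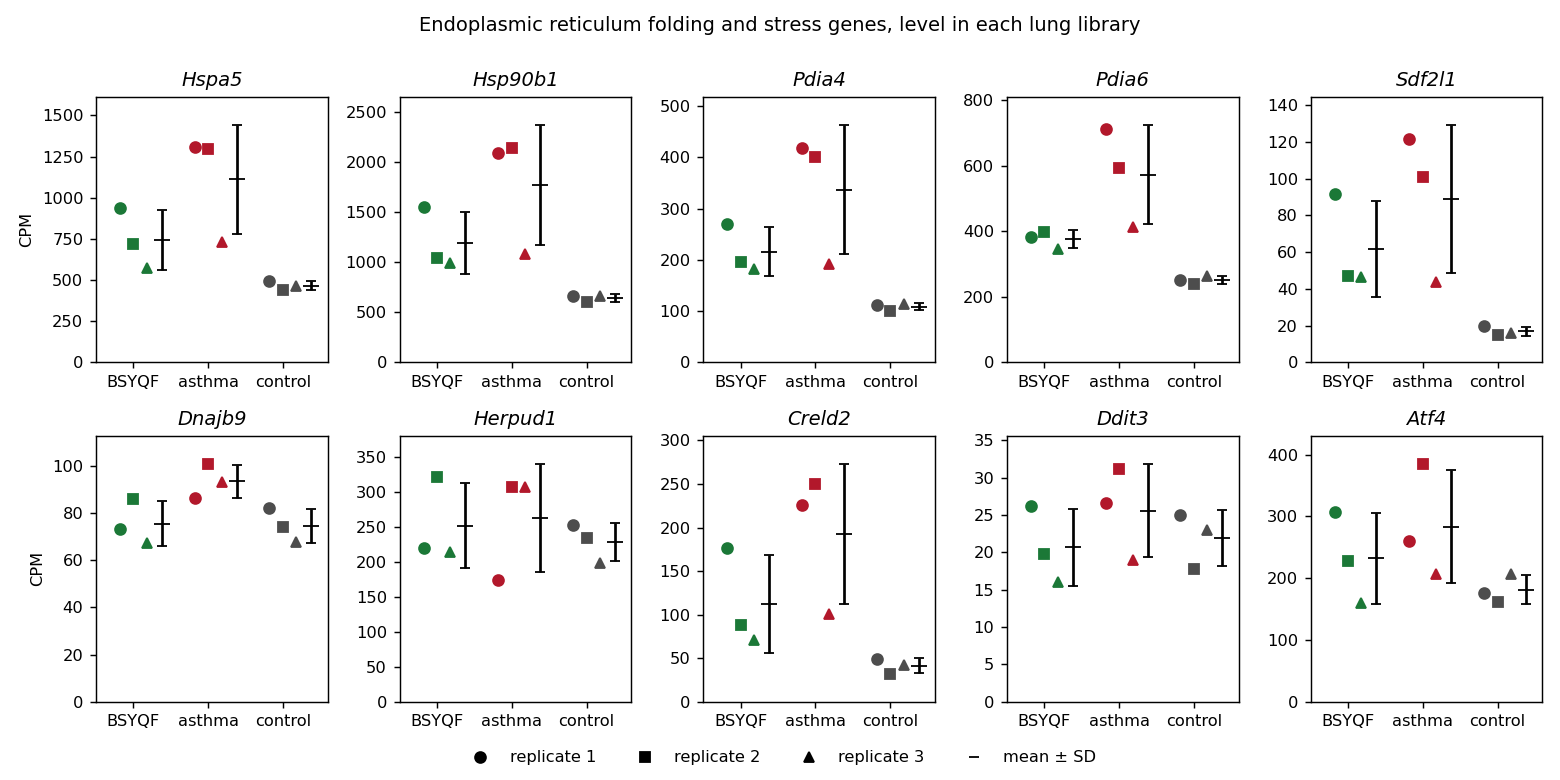
TMM-scaled CPM of each of the 10 members in every library, with BSYQF, asthma and control from left to right, points for libraries, and the mean with its SD (n = 3). Hspa5 runs from 575 to 935 CPM in BSYQF, 732 to 1310.3 CPM in asthma and 441 to 494 CPM in control libraries, while Herpud1, Atf4 and Ddit3 overlap between all groups.

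Dnajb9 and Herpud1 are targets of the same response that act in protein disposal, and neither passed the test. Dnajb9 (ERdj4) is a BiP cochaperone that restrains IRE1 and helps to clear misfolded proteins. It stood at 73.3, 86.0 and 67.3 CPM in BSYQF, 86.6, 101 and 93.2 CPM in asthma, and 82.3, 74.0 and 67.9 CPM in control libraries. Asthma libraries lay above all others, by a narrow margin over the nearest BSYQF library, with a log2 fold change of 0.32 ± 0.14 against control (SE, adjusted p = 0.135 by edgeR). Herpud1, a membrane protein that organises the complex for ER-associated degradation, was at 220.4, 323 and 214 CPM in BSYQF, 174, 307.5 and 307.2 CPM in asthma, and 253, 235 and 199 CPM in control libraries. All 3 groups overlapped, and here the first asthma library and not the third was the low one. The log2 fold change of Herpud1 was 0.20 ± 0.24 (SE, adjusted p = 0.582 by edgeR). Together with the 6 called members, Dnajb9 brought to 7 of 10 the members whose asthma libraries all lay above the control libraries, beside 22% of all genes tested.

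Atf4 and Ddit3 represent the PERK arm, and the mRNA level of Atf4 leaves out its main control, which is translation. Atf4 was at 308, 228 and 160.3 CPM in BSYQF, 260.3, 384 and 206 CPM in asthma, and 176, 161 and 207 CPM in control libraries. The lowest asthma library and the highest control library were nearly level, and the groups overlapped. Its log2 fold change in asthma against control was 0.65 ± 0.26 (SE, adjusted p = 0.114 by edgeR). Ddit3, which encodes the transcription factor CHOP that promotes cell death under lasting stress, was at 26.3, 19.8 and 16.03 CPM in BSYQF, 26.7, 31.2 and 19.0 CPM in asthma, and 25.1, 17.7 and 23.0 CPM in control libraries. These ranges overlapped almost wholly, and the log2 fold change in asthma against control was 0.22 ± 0.24 (SE, adjusted p = 0.541 by edgeR). Ddit3 is uncertain in a second way, since GENCODE vM21 gives its symbol to 2 gene records that overlap by 2925 bases.

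Ratios of raw counts within a library are free of any scaling between libraries, and they show how Hspa5 moved relative to the members that were not called. The log2 ratio of Hspa5 to Ddit3 was 5.15, 5.19 and 5.17 in BSYQF, 5.62, 5.37 and 5.27 in asthma, and 4.30, 4.64 and 4.33 in control libraries. For Hspa5 over Herpud1 it was 2.09, 1.16 and 1.43 in BSYQF, 2.91, 2.07 and 1.25 in asthma, and 0.97, 0.91 and 1.22 in control libraries. Hspa5 was thus higher relative to both genes in every asthma library than in any control library, narrowly so against Herpud1. The mean difference of asthma minus control was 0.998 for Ddit3, 1.05 for Herpud1, 0.88 for Dnajb9 and 0.60 for Atf4. Each had p = 0.1 in a two-sided exact permutation test, which is the smallest p that 3 against 3 libraries allow, and 0.15 after Benjamini-Hochberg adjustment over the 12 ratios and comparisons. These ratios were chosen after the levels had been seen, as a called member over uncalled ones. A shift in asthma against control was largely set by that choice, so the test adds nothing to the calls. In BSYQF against asthma the exact permutation test gave p = 0.1 for Ddit3 (-0.25) and 0.3 to 0.6 for the others. In BSYQF against control the exact permutation test gave p = 0.1 for Ddit3 (0.75), Dnajb9 (0.63) and Atf4 (0.33), and 0.2 for Herpud1 (0.53).

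In the BSYQF lungs no member passed the test against asthma lungs, while every member had a lower fitted level. The count was 0 of 10 by edgeR, DESeq2 and limma voom, and 1 gene of all tested, or 0.00678%, was called by edgeR in this comparison. At an unadjusted p under 0.05, 3 of 10 members were lower (Hspa5, Pdia4 and Pdia6), beside 4.15% of all genes tested. The log2 fold change was negative in 10 of 10 members, beside 50.7% of all genes tested, and its median was -0.55, against 0.00 for all genes tested. The members were measured in the same libraries, so their signs are not independent of each other.

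The values closest to the threshold belonged to the disulfide isomerases and to BiP. Pdia6 averaged 376 ± 26.9 CPM in BSYQF and 573 ± 151 CPM in asthma libraries (SD, n = 3 each), with a log2 fold change of -0.61 ± 0.19 (SE, adjusted p = 0.547 by edgeR). Hspa5 averaged 743 ± 181 CPM in BSYQF and 1112 ± 329 CPM in asthma libraries (log2 fold change -0.58 ± 0.25, adjusted p = 0.619). The largest fitted difference was that of Creld2, at -0.77 ± 0.39 (adjusted p = 0.627), and the smallest that of Herpud1, at -0.06 ± 0.24 (adjusted p = 0.954). Hsp90b1, Pdia4, Sdf2l1, Dnajb9, Ddit3 and Atf4 lay between these, at -0.57, -0.64, -0.52, -0.31, -0.31 and -0.29 on the log2 scale. All BSYQF libraries lay below all asthma libraries in 2 of 10 members, Pdia6 and Dnajb9, beside 4.76% of all genes tested.

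Against control, 1 of 10 members rose in the BSYQF lungs, Sdf2l1, beside 1.63% of all genes tested that were called higher. Sdf2l1 averaged 61.8 ± 26.0 CPM in BSYQF and 16.9 ± 2.46 CPM in control libraries (SD, n = 3 each), a 3.65-fold rise with a log2 fold change of 1.87 ± 0.37 (SE, adjusted p = 0.0338 by edgeR). The BSYQF libraries lay above all control libraries in 6 of 10 members, the same symbols that were called in asthma, beside 13% of all genes tested. Their log2 fold changes other than that of Sdf2l1 were 1.44 for Creld2, 0.98 for Pdia4, 0.90 for Hsp90b1, 0.67 for Hspa5 and 0.58 for Pdia6, with adjusted p between 0.0990 and 0.225. The other members lay close to control, with 0.36 for Atf4, 0.14 for Herpud1, 0.02 for Dnajb9 and -0.09 for Ddit3. The BSYQF mean lay between the asthma and control means in 9 of 10 members, the exception being Ddit3, and so it did in 59.5% of all genes tested. The comparisons share the asthma or the control libraries, so a mean between the others is no separate evidence.

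**Figure D3:**
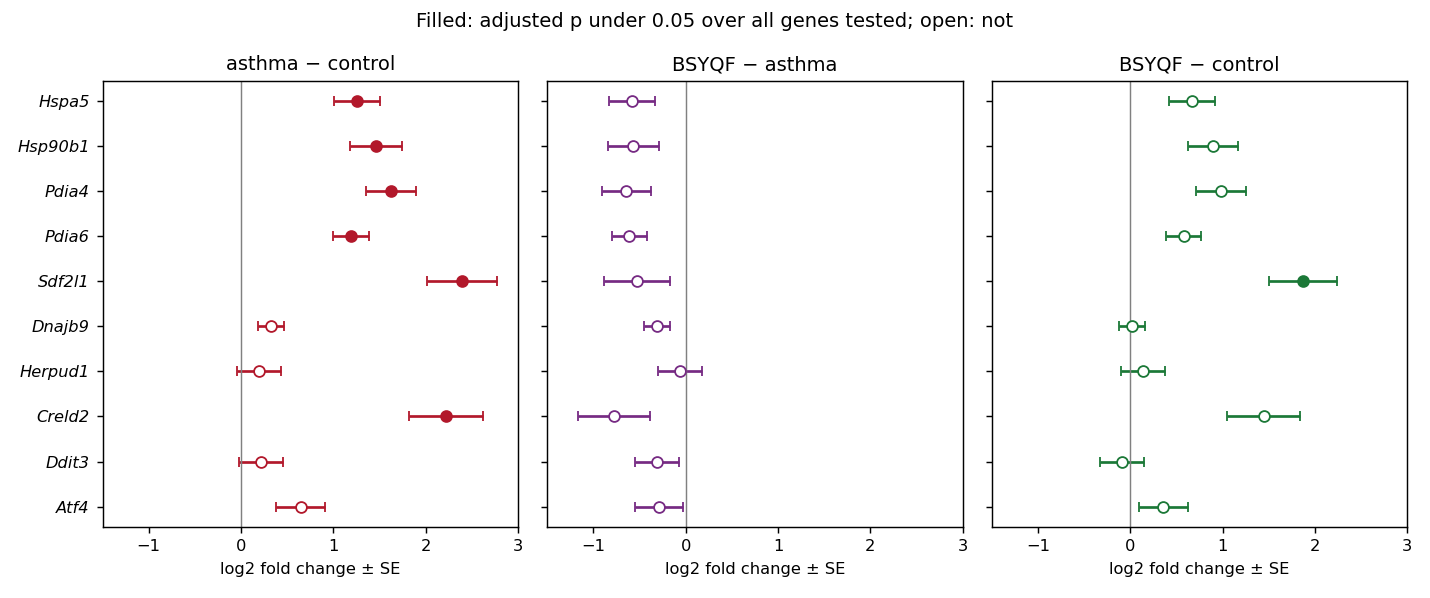
Log2 fold change of each member with its SE in the comparisons of BSYQF with asthma and of BSYQF and asthma with control, from 1 edgeR model of 9 libraries, with filled marks for an adjusted p under 0.05. Filled marks stand at 6 members for asthma against control, at 0 for BSYQF against asthma and at Sdf2l1 for BSYQF against control.

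The members' order of libraries was much alike. The third asthma library was the lowest of its group in 8 of 10 members, the third BSYQF library the lowest of its group in 10 of 10, and the first BSYQF library the highest in 7 of 10. In asthma the first library was the highest in 4 members and the second in 6, and in control the second was the lowest in 8. Summed over the 10 members, levels were 4036, 3143 and 2668 CPM in BSYQF, 5425, 5596 and 3185 CPM in asthma, and 2129, 1914 and 2054 CPM in control libraries. The first BSYQF library thus exceeded the third asthma library, and the control libraries were close together. On the first principal component of all genes tested, which held 51.6% of the variance, the scores were 40.5, 1.20 and -19.6 for BSYQF, 51.9, 76.0 and 1.77 for asthma, and -51.9, -56.7 and -43.2 for control libraries. On this component too the third library was the lowest of the BSYQF and of the asthma group, so this order was not confined to the members. The share of all genes tested with such orders was not counted.

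The calls rested on few libraries. Of the 6 members called in asthma against control, 2 were called without the first asthma library, 3 without the second, 5 without the first control library, 1 without the second and 3 without the third, and Sdf2l1 was the member called in all 9 fits that left out a library. Without the third asthma library 7 were called, with Atf4 added at a log2 fold change of 0.82 (adjusted p = 0.0361 by edgeR). In BSYQF against asthma, leaving out that library gave 2 called members, Pdia4 at -0.92 (adjusted p = 0.0441) and Pdia6 at -0.79 (adjusted p = 0.0401). Leaving out both the third asthma and the first BSYQF library gave 6, with log2 fold changes of -0.80 to -1.57. That pair was chosen after the levels had been seen, and removing the lowest asthma and the highest BSYQF library widens the difference by construction. In BSYQF against control, Sdf2l1 was not called without the first or the second BSYQF library or without any 1 of the control libraries, and 5 members were called without the third asthma library. Counts over all genes moved with these fits too. At an unadjusted p under 0.05 by edgeR, 5028 of 14739 genes passed in asthma against control with all libraries, and 6288 of 14941 without the third asthma library. In BSYQF against asthma these were 1171 and 3035, with 4663 of 14882 without the pair. In BSYQF against control they were 2330 and 2890.

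Markers of several cell types moved with the groups too. Plasma cell markers (8 in the count table, 6 of 8 tested called higher in asthma against control) summed to 4268 to 4514 CPM in BSYQF, 3195 to 4495 CPM in asthma and 474 to 612 CPM in control libraries. On average most of this sum in the BSYQF and asthma groups came from 1 gene, Jchain. Goblet cell markers (9 of 9 tested, 8 called higher) summed to 313 to 5174 CPM in BSYQF, 526 to 4285 CPM in asthma and 37.8 to 75.4 CPM in control libraries. Macrophage markers (9 of 11 called higher) summed to 7363 to 15966 CPM in BSYQF, 10750 to 13287 CPM in asthma and 4651 to 6140 CPM in control libraries. The macrophage list included Arg1, Retnla and Chil3. None of the markers in these lists was at 0 in every library, and none was called in BSYQF against asthma. Proliferation genes were called higher in 6 of 6 in asthma against control. Heart muscle markers summed to 401 to 886 CPM in BSYQF, 119.8 to 219.9 CPM in asthma and 364 to 897 CPM in control libraries, and 5 of 6 were called lower in asthma against control. Adipocyte markers summed to 54.5 to 301 CPM in BSYQF, 2.49 to 14.1 CPM in asthma and 63.0 to 326 CPM in control libraries, with 1 marker at 0 in every asthma library, and 4 of 5 were called lower in asthma against control. None of these was called in BSYQF against asthma, but at an unadjusted p under 0.05 all 6 heart muscle markers (median log2 fold change 2.27, 5 of 6 without overlap) and all 5 adipocyte markers (4.96, 5 of 5 without overlap) were higher. Of all 14739 genes tested, 559 were higher at that threshold, and 735 had every BSYQF library above every asthma library. For the heart muscle and adipocyte lists the summed level was lower in every asthma library than in any other library. The share of counts from mitochondrial genes was 6.53%, 3.61% and 2.64% in BSYQF, 5.05%, 10.3% and 3.77% in asthma, and 2.68%, 2.19% and 3.46% in control libraries. In bulk lung RNA, a change in the share of a cell type and a change of RNA per cell cannot be told apart, and the part of these markers in the members' levels was not tested. Lung markers were at hand in every group, with alveolar type 2 genes summing to 21043 to 32318 CPM in BSYQF, 21314 to 28425 CPM in asthma and 22371 to 26013 CPM in control libraries. Alveolar type 1 genes summed to 3692 to 4182 CPM in BSYQF, 2898 to 4746 CPM in asthma and 4911 to 5272 CPM in control libraries. Of these, 1 of 5 was called lower in asthma against control, beside 4.45% of all genes tested. All BSYQF libraries lay below control in 4 of 5, beside 1740 of the 14739 genes tested. Endothelial genes summed to 3083 to 3269 CPM in BSYQF, 2137 to 3587 CPM in asthma and 3183 to 4523 CPM in control libraries, and all 6 were negative in asthma against control, with 1 called lower.

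Plasma cell markers and the members differed in their order in the BSYQF libraries. The mean log2 distance from the control mean over the plasma cell markers was 2.40, 2.14 and 2.48 in BSYQF and 2.30, 2.57 and 1.57 in asthma libraries. Over the 10 members it was 0.97, 0.63 and 0.36 in BSYQF and 1.26, 1.40 and 0.64 in asthma libraries. The third BSYQF library was thus the highest of its group for the plasma cell markers and the lowest for the members. The plasma cell values of the BSYQF libraries were close together, however. In the asthma libraries both lists had the same order, with the second library highest and the third lowest. Over the goblet cell markers the mean log2 distance was 5.28, 2.99 and 2.46 in BSYQF and 4.11, 5.12 and 2.84 in asthma libraries. In this order the third library was the lowest of the BSYQF and of the asthma group, as for the members. Over the macrophage markers it was 3.06, 2.09 and 1.53 in BSYQF and 2.86, 2.98 and 2.44 in asthma libraries, with that same order in both groups. Over the translocation and N-glycosylation genes it was 0.45, 0.36 and 0.13 in BSYQF and 0.81, 0.81 and 0.37 in asthma libraries, and over the targets of the integrated stress response 0.53, 0.38 and 0.34 in BSYQF and 0.52, 0.54 and 0.21 in asthma libraries. In the BSYQF and asthma groups these 2 lists were lowest in the third library, like the members. The plasma cell gene Jchain, which links antibody polymers, averaged 3533 CPM in BSYQF, 2861 CPM in asthma and 115 CPM in control libraries.

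**Figure D4:**
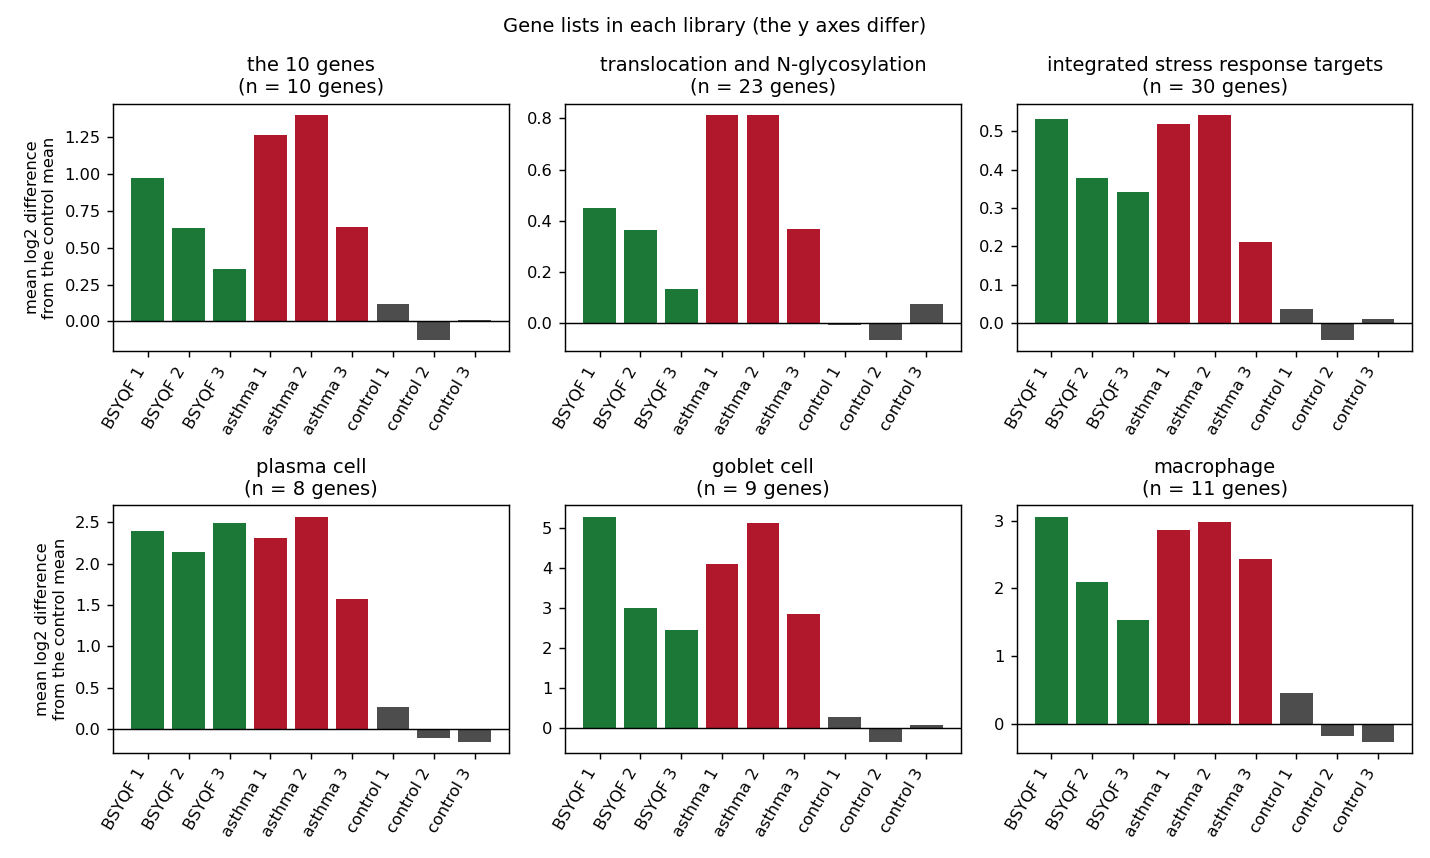
Bars give the mean log2 distance from the control mean in each library for the 10 members and 5 other gene lists, with BSYQF, asthma and control from left to right and a y axis of its own for each list. The members stand at 0.97, 0.63 and 0.36 in BSYQF, 1.26, 1.40 and 0.64 in asthma and 0.12, -0.13 and 0.01 in control libraries, and the plasma cell markers at 2.14 to 2.48 in BSYQF and 1.57 to 2.57 in asthma libraries.

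Of 153 other genes of the pathway that were tested, 57 rose and 2 fell in asthma against control, beside 8.23% and 4.45% of all genes tested, and their median log2 fold change was 0.53. In BSYQF against asthma 0 of them passed by edgeR, 1 was lower by DESeq2 and 0 by limma voom, and at an unadjusted p under 0.05 27 were lower and 2 higher. Without the third asthma library 5 passed as lower. Of the log2 fold changes in BSYQF against asthma 122 of 153 were negative, and in BSYQF against control 9 rose. The 57 became 5 without the first asthma library, 7 without the second and 76 without the third, 13, 5 and 14 without the first, the second and the third control library, and 34 without the second BSYQF library. The 9 became 3 without the first or the second BSYQF library, 5 without the first asthma library, 19 without the third, 1 without the first control library and 0 without either of the others, and the counts for each kind of gene given next share this dependence.

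Chaperones and cochaperones other than the members rose in 7 of 18 tested genes. Manf, a secreted ER stress protein, averaged 220 ± 96.2 CPM in BSYQF, 368 ± 158 CPM in asthma and 96.5 ± 11.6 CPM in control libraries, with a log2 fold change of 1.93 ± 0.37 in asthma against control (SE, adjusted p = 0.0137 by edgeR). Dnajb11, the BiP cochaperone that pairs with Sdf2l1, averaged 131 ± 20.5 CPM in BSYQF, 198 ± 58.2 CPM in asthma and 88.5 ± 5.24 CPM in control libraries, and rose by 1.16 on the log2 scale in asthma (adjusted p = 0.012). Hyou1, a nucleotide exchange factor of BiP, rose by 1.10 (adjusted p = 0.0183), and Fkbp2, a prolyl isomerase, by 1.35 (adjusted p = 0.0258). None was called in BSYQF against asthma, where 14 of 18 were negative.

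Among the other oxidoreductases 9 of 14 tested genes rose in asthma against control. Txndc5, a disulfide isomerase abundant in plasma cells, averaged 396 ± 28.7 CPM in BSYQF, 401 ± 63.2 CPM in asthma and 223 ± 1.09 CPM in control libraries. It rose in asthma against control (log2 fold change 0.85 ± 0.15, adjusted p = 0.0114 by edgeR) and in BSYQF against control (0.83 ± 0.15, adjusted p = 0.0268), and its BSYQF and asthma means were almost equal. Agr2, a disulfide isomerase needed for mucin in goblet cells, averaged 25.0 ± 18.9 CPM in BSYQF, 46.1 ± 23.8 CPM in asthma and 3.16 ± 2.16 CPM in control libraries (asthma against control 3.85 ± 0.69, adjusted p = 0.0132).

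ER-associated degradation held 7 of 16 tested genes that rose in asthma against control and 3 that rose in BSYQF against control, Derl3, Edem1 and Edem2. Derl3, a channel-associated factor prominent in secretory cells, averaged 27.3 ± 4.24 CPM in BSYQF, 29.0 ± 12.8 CPM in asthma and 2.76 ± 1.90 CPM in control libraries. Its log2 fold change was 3.38 ± 0.47 in asthma against control (SE, adjusted p = 0.00621 by edgeR) and 3.30 ± 0.47 in BSYQF against control (adjusted p = 0.0101). Edem1, a lectin that extracts misfolded glycoproteins, averaged 199 ± 24.7 CPM in BSYQF, 209 ± 50.8 CPM in asthma and 86.9 ± 6.80 CPM in control libraries, and rose by 1.26 in asthma and 1.20 in BSYQF against control on the log2 scale (adjusted p = 0.00813 and 0.0147).

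Of the sensors and transcription factors, 2 of 12 tested genes rose in asthma against control, Xbp1 and Ern2. Xbp1 averaged 352 ± 34.5 CPM in BSYQF, 403 ± 89.2 CPM in asthma and 214 ± 14.1 CPM in control libraries, with a log2 fold change of 0.91 ± 0.18 (SE, adjusted p = 0.0152 by edgeR). These counts are per gene and do not separate spliced from unspliced Xbp1 mRNA. Ern2, the IRE1 form of mucus-producing epithelium, averaged 3.10 ± 1.48 CPM in BSYQF, 2.40 ± 1.08 CPM in asthma and 0.358 ± 0.390 CPM in control libraries (2.70 ± 0.74, adjusted p = 0.0422). The widely expressed sensors had log2 fold changes of -0.29 for Ern1, -0.18 for Atf6 and 0.07 for Eif2ak3, and did not pass (adjusted p = 0.271, 0.407 and 0.733).

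Targets of the integrated stress response, the programme that ATF4 drives, rose in 6 of 30 tested genes and fell in 2 in asthma against control. Those that rose were Slc7a11, Mthfd2, Slc7a5, Aldh18a1, Shmt2 and Psat1, which act in amino acid transport and in amino acid or one-carbon synthesis, and those that fell were Vldlr and Stc2. Slc7a11, the cystine transporter, averaged 16.5 CPM in BSYQF, 38.8 CPM in asthma and 3.30 CPM in control libraries, with a log2 fold change of 3.55 ± 0.50 in asthma against control (SE, adjusted p = 0.00687 by edgeR) and 2.32 in BSYQF against control (adjusted p = 0.0392). Trib3 and Asns, which are common readouts of ATF4 and CHOP, had log2 fold changes of -0.12 and 0.07 in asthma against control (adjusted p = 0.789 and 0.817). Ppp1r15a, which ends the PERK signal, averaged 92.7 ± 18.6 CPM in BSYQF, 66.6 ± 6.25 CPM in asthma and 67.7 ± 6.20 CPM in control libraries, and did not pass in BSYQF against asthma (log2 fold change 0.48, adjusted p = 0.579). Of the other kinases of this response, 0 of 3 passed in asthma against control.

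Machinery that carries proteins into and out of the ER also held genes that rose in asthma. Translocation and N-glycosylation genes rose in 14 of 23 tested, with a median log2 fold change of 0.75 in asthma against control, and 23 of 23 were negative in BSYQF against asthma, where 0 passed, 8 had an unadjusted p under 0.05 and the median was -0.37. Ostc, a subunit of the oligosaccharyltransferase, averaged 83.6 ± 6.13 CPM in BSYQF, 134 ± 30.9 CPM in asthma and 68.7 ± 7.14 CPM in control libraries. It rose in asthma against control (0.96 ± 0.18, adjusted p = 0.012 by edgeR), and its BSYQF libraries lay below all asthma libraries (-0.68 ± 0.18, adjusted p = 0.38). Genes of ER to Golgi transport rose in 10 of 21 tested in asthma against control. The retrieval receptor Kdelr3 averaged 6.58 ± 1.24 CPM in BSYQF, 14.9 ± 4.68 CPM in asthma and 4.66 ± 1.45 CPM in control libraries (asthma against control 1.67 ± 0.32, adjusted p = 0.0133, BSYQF against asthma -1.18 ± 0.31, adjusted p = 0.402).

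**Figure D5:**
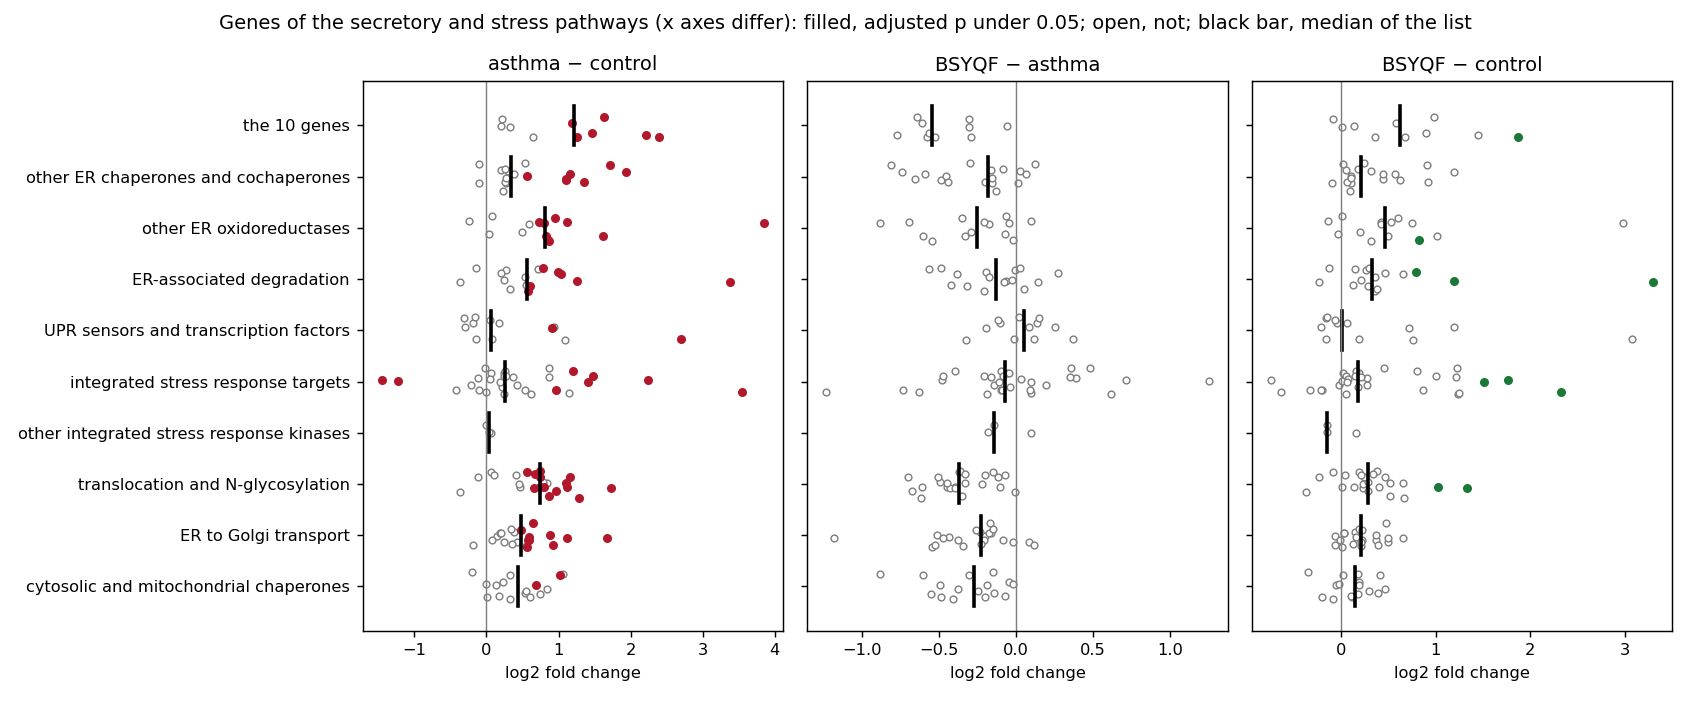
Log2 fold changes of all tested genes of the members' list and 9 other lists, 1 point per gene, in panels for asthma against control, for BSYQF against asthma and for BSYQF against control, with x axes of their own, with filled points for an adjusted p under 0.05 and a bar at each list's median. The translocation and N-glycosylation genes have medians of 0.75 in asthma against control and -0.37 in BSYQF against asthma, where no point is filled.

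Compared between genes by level per length, as CPM per kilobase of exon, Hsp90b1 and Hspa5 were the most abundant members in each group, at 296 and 176 in BSYQF, 438 and 263 in asthma, and 159 and 110.2 in control libraries. The BSYQF order then ran Herpud1, Pdia6, Atf4, Pdia4, Creld2, Sdf2l1, Dnajb9 and Ddit3, and the asthma order Pdia6, Creld2, Pdia4, Atf4, Herpud1, Sdf2l1, Dnajb9 and Ddit3. The control order ran Herpud1, Atf4, Pdia6, Pdia4, Creld2, Dnajb9, Sdf2l1 and Ddit3. Sdf2l1 and Dnajb9 changed places, with 55.8 and 29.6 in BSYQF, 80.2 and 36.7 in asthma, and 15.3 and 29.3 CPM per kilobase in control libraries. These did not overlap in any group, but in asthma the lowest Sdf2l1 library (39.6) and the highest Dnajb9 library (39.5) were nearly level. Many neighbours in these orders overlapped between libraries, Herpud1 and Pdia6 in BSYQF and Pdia6 and Creld2 in asthma among them.

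Genes whose pattern over the 9 libraries was most like a member's were found by the root mean square difference of centred log2 CPM. For Hspa5 these were S100a11 (0.0820), Nek6 (0.0841), Tmem106a (0.0993), Emp3 (0.0996) and Dnajb11 (0.108). The nearest member was Hsp90b1 at rank 11 (0.126), followed by Pdia6 at rank 39 and Pdia4 at rank 82. Then came Atf4 at rank 776, Ddit3 at 2804, Creld2 at 3141, Dnajb9 at 3362, Sdf2l1 at 5545 and Herpud1 at 7065. The uncalled Atf4 and Ddit3 thus ranked ahead of the called Creld2 and Sdf2l1. This measure also counts a difference in the size of a change. The 5 nearest genes were Cdk9, Dapk3, Polr2c, Spint2 and Ppp1r35 for Atf4 (0.0612 to 0.0788) and Plppr2, Nxf1, Paxbp1, Ccnh and Metap1d for Ddit3 (0.0915 to 0.0993). No member was among these.

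The other genes with the full ER stress response element in their window numbered 33, of which 13 were tested. Of these, 4 rose and 1 fell in asthma against control, beside 8.23% and 4.45% of all genes tested. The log2 fold change was positive in 7 of 13, with a median of 0.21, against 0.02 for all genes tested. Those that rose were the lectin chaperones Calr and Canx, Derl3 and the ubiquitin ligase Syvn1, and the 1 that fell was Acacb. These names follow from the sequence match and were looked at after their values were seen. The 4 that rose are already among the 57 pathway genes given above. Sdf2l1 and Pdia4, whose windows held no exact match, were among the members that rose.

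The authors' deposited table of asthma against control listed Creld2, Hsp90b1, Hspa5, Pdia4, Pdia6 and Sdf2l1 among its 1746 genes, with log2 fold changes of 1.16 for Pdia6 to 2.37 for Sdf2l1. The authors' deposited table of BSYQF against control listed 2 members, Creld2 at 1.44 and Sdf2l1 at 1.86, among 896 genes, and the authors' deposited table of BSYQF against asthma listed 0 among 424. All these deposited tables hold only genes with an absolute log2 fold change of at least 1 and a p-value under 0.05, from the same libraries.

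By GENCODE vM21 on GRCm38, 1-based, the members are protein-coding genes on separate loci. Hspa5 lies at chr2:34771970-34777547, Hsp90b1 at chr10:86690209-86705509, Pdia4 at chr6:47796141-47813430, Pdia6 at chr12:17266545-17284770 and Sdf2l1 at chr16:17130138-17132383. Dnajb9 lies at chr12:44205559-44210326, Herpud1 at chr8:94386438-94395377, Creld2 at chr15:88819646-88826683, Ddit3 at chr10:127290774-127296288 and Atf4 at chr15:80255184-80257541. Hsp90b1, Herpud1, Pdia6, Ddit3 and Dnajb9 overlap another gene on the opposite strand, by 4598, 535, 50, 68 and 14 bases for the longest such overlap of each, and the strand setting of the counting is not given, so shared reads there cannot be told apart. Total counts were 16286385 to 22819199 per library, and the lowest count of any member was 259.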

How the data were processed

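Lung RNA was isolated with Trizol and made into NEBNext Ultra libraries, per the labels' protocols. Per the submitters' processing notes, the tools were FastQC, cutadapt, STAR, HTSeq and DESeq2, with the build mm10. The sources used here give no versions, annotation or strand setting. The authors deposited raw counts per gene and library, which entered every test. The authors also deposited, per the file headers, log2 fold changes and p-values of 3 comparisons, used here only where named, and 36 further columns per library were not used. Libraries were grouped by their labels.

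Counts were filtered with filterByExpr, scaled with TMM and fitted in R 4.3.3 with edgeR 4.0.16 (glmQLFit, robust, glmQLFTest) as 1 model of all groups with no replicate block, and genes with a Benjamini-Hochberg adjusted p under 0.05 were called. The edgeR biological coefficient of variation was 0.244. The script was tested on simulated data. Alternatives were other scalings, no filter, DESeq2 1.42.0, limma 3.58.1 voom, the other dispersion method, 2-group fits, a replicate block and leaving out each library. Leaving out a pair of libraries was added after the data were seen.

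The members and lists were chosen with earlier results of these data known. The text names all members, up to 4 genes per pathway list with the smallest p-values among those called, any called in a BSYQF comparison (again up to 4), 8 genes always named, and the 5 nearest genes for Hspa5, Atf4 and Ddit3. It picks from these, and genes named outside this rule were chosen after their values were seen. Of 157 other pathway genes the count table held 156, of which 153 were tested.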

Additional observations from a re-analysis of the deposited data

How the results depend on the processing

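The 6 members called in asthma against control stayed called with DESeq2 size factors, library totals alone, no filter, DESeq2, limma voom, the other dispersion method and 2-group fits, and 1 to 7 were called when a library was left out. In BSYQF against asthma 0 to 2 members were called with a library left out, and 6 without both the third asthma and the first BSYQF library. In BSYQF against control 0 to 5 were called with a library left out, 4 with DESeq2, 0 with limma voom (Sdf2l1 at 1.80, adjusted p = 0.0962), 4 with 2 groups and 4 without that pair of libraries. Genes called in asthma against control numbered 1869, with 3315 by DESeq2, 1278 by limma voom, 5361 without the pair and 171 to 4262 with a library left out. In BSYQF against asthma 1 gene was called, with 123 by DESeq2, 0 by limma voom, 0 with 2 groups, 1744 without the pair and 0 to 114 with a library left out. In BSYQF against control 246 were called, with 826 by DESeq2, 90 by limma voom, 389 with 2 groups, 427 without the pair and 9 to 563 with a library left out. A fit with a library left out has fewer samples, and its counts were lower or higher than with all libraries depending on the library left out. The cause was not tested.

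The signs that turned were of uncalled members near 0. In BSYQF against asthma Herpud1 (-0.06) was 0.022 with library totals alone, 0.16 without the pair and -0.28 to 0.079 with a library left out. In BSYQF against control Dnajb9 (0.02) was -0.010 with library totals alone and -0.090 to 0.091 with a library left out, Herpud1 (0.14) was -0.078 to 0.24 and Ddit3 (-0.09) was -0.30 to 0.067 with a library left out. 

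The labels do not say whether same-numbered libraries of different groups are paired. Their deviations from their group means correlated at -0.259 to 0.339, and not every library was nearest to its own number. With 3 libraries a group these correlations cannot decide whether the numbers pair them. With the replicate block 1469, 15 and 237 genes were called in asthma against control, in BSYQF against asthma and in BSYQF against control, with 6, 0 and 1 members. The members' counts were at least 259 in every library.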

Other observations

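Of 16 tested cytosolic and mitochondrial chaperones, 2 rose in asthma against control, beside 8.23% of all genes tested, both parts of the mitochondrial folding chamber. The log2 fold change was positive in 14 of 16, with a median of 0.43, and 6 were higher at an unadjusted p under 0.05. By DESeq2 4 rose, without the third asthma library 6 and without that library and the first BSYQF library 7. Without the first BSYQF library 3 rose, and 0 passed without the second BSYQF library, the first or second asthma library or any 1 of the control libraries. Hspe1 averaged 45.4 CPM in BSYQF, 69.0 CPM in asthma and 34.0 CPM in control libraries, with a log2 fold change of 1.02 in asthma against control (adjusted p = 0.0317 by edgeR). Hspd1 averaged 132 CPM in BSYQF, 186 CPM in asthma and 116 CPM in control libraries, with a log2 fold change of 0.68 (adjusted p = 0.0348 by edgeR). The cytosolic Hsp90ab1 averaged 1352 CPM in BSYQF, 1755 CPM in asthma and 978 CPM in control libraries and did not pass (0.84, adjusted p = 0.0650), and the heat shock genes Hspa1a and Hspa1b did not pass either (adjusted p = 0.618 and 0.641). In BSYQF against asthma 0 of 16 passed by edgeR, DESeq2 or limma voom, 3 were lower at an unadjusted p under 0.05, and all 16 had a negative log2 fold change. Hsp90ab1, Hspa1a and Hspa1b were named after their values were seen.

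The second form of the element was in the windows of 7 tested genes other than Herpud1, of which 2 rose in asthma against control, Dnajb11 and Krtcap2, and 1 fell, Lgalsl. Of all genes tested 8.23% were called higher and 4.45% lower. Dnajb11 is already among the pathway genes given above.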
